A study of Homo sapiens with 8 samples.

Results

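The genes described here were 41 regulators of chromatin chosen by symbol, namely SWI/SNF subunits, histone acetyltransferases, histone deacetylases (HDACs), bromodomain readers, Polycomb and H3K27 demethylase genes, DNA methyltransferases and TET dioxygenases. All 41 were found among the 25369 genes of the deposited tables, and all 41 were among the 14570 genes that passed a filter on low counts. Their RNA was measured in LX-2 cells, which are immortalized human hepatic stellate cells (HSCs) that the labels give as wild type and of liver origin. The matrix under the cells had a stiffness of 2 kPa (soft) or 40 kPa (stiff) and culture lasted 2 or 4 days, which gave 4 conditions with 2 libraries each and 8 libraries in all. No other treatment or allele is named for any condition, so every group was the same single cell line and none was a primary or freshly isolated HSC. The study's figure legends describe the replicates as independent experiments and its methods call them biological replicates, whereas the labels only number them. The p-values measure the spread between these libraries. In the main fit that spread is estimated per gene over all 8 libraries together, also where a comparison uses only some of them.

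DNA in the nucleus is wound around histones, and the packing is altered by several kinds of enzyme. SWI/SNF complexes use ATP to slide or evict nucleosomes, acetyltransferases and HDACs add and remove acetyl groups on histone tails, and BET bromodomain proteins bind the acetylated tails. Polycomb repressive complex 2 (PRC2) methylates lysine 27 of histone H3 (H3K27), KDM6 enzymes remove that methylation, and DNMT and TET enzymes place and oxidize DNA methylation. In HSCs, enzymes of these families are studied for their part in the switch from a quiescent to a matrix-producing cell.

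The libraries held between 19955975 and 27263935 counts, and the listed genes had between 97 counts (HDAC9) and 8871 counts (DNMT1) in a library. Levels are given as CPM (counts per 1000000 counts of the library) scaled by edgeR's TMM factors, which lay between 0.8704 and 1.08. Markers of HSCs were present, with 2 of 12 (DES and LRAT, a marker of quiescent cells) under 1 CPM in every library, and their summed level was 3462 to 4353 CPM at 2 days and 5514 to 8261 CPM at 4 days. Of hepatocyte and endothelial markers, 7 of 8 and 6 of 6 stayed under 1 CPM, with summed levels of 4.45 to 10.6 CPM and 0.835 to 1.55 CPM. Leukocyte markers summed to 89.8 to 127 CPM, nearly all of it CD68, and 3 of 6 were under 1 CPM, while 4 cholangiocyte markers summed to 32.2 to 37 CPM at 2 days and 50.7 to 71.2 CPM at 4 days. The part of any of these in the results below was not tested. Replicates on the stiff matrix at 4 days stood further apart than those of any other condition: the median difference between replicates over the 41 genes was 0.47 on the log2 scale, against 0.04 to 0.19 in the other conditions.

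Levels between genes can be compared only per length, for which the deposited FPKM were used. By mean FPKM over the 8 libraries, the most abundant listed transcripts were those of the SWI/SNF core subunits SMARCB1 (79.0, from 60.5 to 92.6) and SMARCE1 (78.6, from 71.2 to 83.7), followed by HDAC3 (66.5, from 56.5 to 91.9) and HDAC1 (64.2, from 55.9 to 72.0). Neighbours in this order overlapped across libraries. The lowest were the dioxygenase gene TET2 (0.594, from 0.382 to 0.743), HDAC9 (0.839, from 0.626 to 1.09), HDAC4 (1.26, from 0.747 to 1.54) and TET3 (1.27, from 0.609 to 1.71), whose ranges also overlapped.

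Paralogues that fill the same place in a complex were not equally abundant. Of the SWI/SNF ATPases, SMARCA4 had 24.9 to 39.9 FPKM and SMARCA2 4.18 to 7.14 FPKM, without overlap between the genes in any library. The PRC2 methyltransferase EZH2 had 19.4 to 27.1 FPKM and its paralogue EZH1 6.397 to 9.485 FPKM, and the acetyltransferase KAT2A had 19.7 to 44.8 FPKM against 2.98 to 4.34 FPKM for KAT2B. EP300 (1.84 to 11.3 FPKM) and CREBBP (3.99 to 10.03 FPKM) overlapped. For BRD2, the gene length implied by the FPKM (33211 bases) was 5.459 times its longest annotated transcript, so its 6.07 FPKM cannot be set beside those of other genes. The implied length of TET2 (15321 bases) was 1.507 times its longest transcript, so its place among the lowest genes is not settled.

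**Figure D1:**
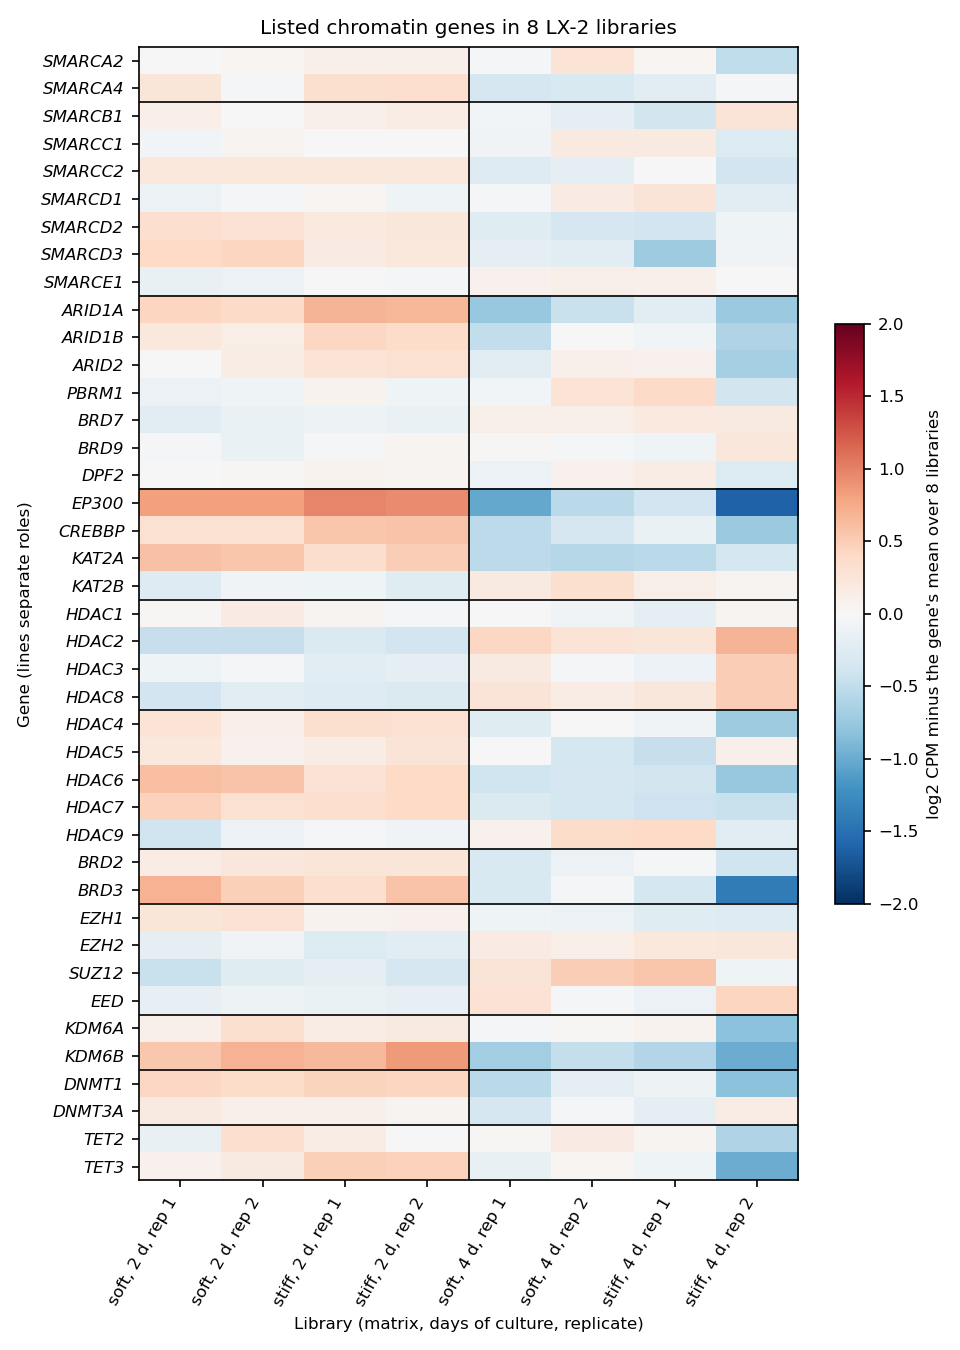
Heat map of the 41 genes (rows, grouped by role) in the 8 libraries (columns), coloured by log2 CPM minus the mean of the gene over the libraries. The rows of EP300, ARID1A and KDM6B are red in the 4 libraries of 2 days and blue in the 4 libraries of 4 days, HDAC2 shows the reverse, and the last column differs most from its replicate.

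Matrix stiffness was compared first, since the study asks how a stiff matrix acts on chromatin and transcription over time. At 2 days, 0 of the 41 genes passed an adjusted p of 0.05 in either direction in edgeR's quasi-likelihood fit, with Benjamini-Hochberg adjustment over all genes. In that fit of all libraries 0% of the 14570 genes passed. At an unadjusted p under 0.05 the count was 0 of 41, against 2.82% of all genes, and the smallest unadjusted p of a listed gene was 0.15 in the edgeR fit. DESeq2 and an edgeR fit of the 2-day libraries alone also called 0 of them, though each called some of all genes, as counted below. The log2 differences ran from -0.25 to 0.34 with a median of 0.05 (0.01 over all genes), with 25 genes above and 16 below 0 (51.7% of all genes were above), which became 16 above and 25 below without scaling factors. The 95% intervals of the single genes reached from -0.82 to 0.93 on the log2 scale.

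Without a call, part of the genes still separated by matrix at 2 days. The stiff libraries exceeded the soft libraries in 17 genes (41.5%), where 25.7% of all genes did, and below in 8 genes (19.5%), where 22.4% did. Across the 41 genes the log2 difference at 2 days was correlated with implied length (Spearman's rho 0.555, against 0.255 over 13158 genes), and with offsets per library for length and GC content, an alternative chosen after seeing the data, the median was 0.04 against 0.03 over all genes, with 23 genes above and 18 below 0. Such offsets also take out any effect of stiffness that follows length or GC content. The 7 subunits specific to a type of SWI/SNF complex all had differences above 0, from 0.06 (DPF2) to 0.27 (ARID1A), and in 6 of them (all but PBRM1) the libraries did not overlap. Of the 7 core subunits 3 were above and 4 below 0, and of 12 other SWI/SNF subunits tested 5 were above and 7 below. At 4 days the 7 specific subunits had 3 above and 4 below 0. SMARCA4 had 218 and 181 CPM on the soft and 231 and 234 CPM on the stiff matrix. Its stiff libraries were the higher ones, without overlap, and the log2 difference was 0.22 (standard error 0.141, adjusted p = 1 in edgeR). SMARCA2, the other ATPase, had 41.5 and 42.5 CPM on the soft and 44.3 and 44.3 CPM on the stiff matrix, a log2 difference of 0.08 (standard error 0.195).

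With SMARCA4, HDAC6 and EZH1 had the smallest unadjusted p at 2 days. HDAC6, a mainly cytoplasmic deacetylase that acts on tubulin, had 83.0 and 81.2 CPM on the soft and 66.6 and 71.6 CPM on the stiff matrix, a log2 difference of -0.25 (standard error 0.156, unadjusted p = 0.15 and adjusted p = 1 in edgeR). EZH1 had 42.42 and 44.04 CPM on the soft and 37.8 and 38.0 CPM on the stiff matrix, a log2 difference of -0.19 (standard error 0.12, unadjusted p = 0.151 in edgeR). In both genes the soft libraries were the higher ones and the groups did not overlap. The acetyltransferase genes EP300 and CREBBP also separated, with differences of 0.14 (standard error 0.342) and 0.26 (standard error 0.194) and higher stiff libraries. Standard errors at 2 days also carry the replicate spread of 4 days. In EP300 the larger replicate was 1.003 (soft) and 1.031 (stiff) times the smaller at 2 days, and 1.405 and 2.359 times at 4 days.

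At 4 days, 0 of the 41 genes passed in either direction, where 0.0343% of all genes were called higher and 0.213% lower, 0.247% in all. The unadjusted count was again 0 of 41 (6.93% of all genes), and DESeq2 called 0 of the 41 as well. Log2 differences ran from -0.61 to 0.19 with a median of -0.05 (0.02 over all genes), with 16 genes above and 25 below 0 (53.4% of all genes were above), which became 6 and 35 without scaling factors. Their 95% intervals reached from -1.32 to 0.70. The stiff libraries lay above the soft ones in 3 genes (SMARCA4, BRD7 and EZH2, 7.32% against 11.7% of all genes) and below them in 4 (KAT2B, HDAC7, BRD3 and EZH1, 9.76% against 14%).

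BRD3, a BET reader of acetylated histones, had the largest difference at 4 days. It had 19.3 and 23.1 CPM on the soft and 18.7 and 8.98 CPM on the stiff matrix. Replicate 1 from the stiff matrix lay close to the soft libraries and replicate 2 far below, and the log2 difference of -0.61 (standard error 0.306) had an unadjusted p of 0.0819 and an adjusted p of 0.806 in edgeR. SMARCA2 had 40.6 and 50.2 CPM on the soft and 42.5 and 29.2 CPM on the stiff matrix (log2 difference -0.34, standard error 0.197, adjusted p = 0.834 in edgeR). TET3, which oxidizes methylated cytosine, had 12.6 and 14.3 CPM on the soft and 13.1 and 7.03 CPM on the stiff matrix (log2 difference -0.41, standard error 0.265, adjusted p = 0.852 in edgeR). In SMARCA2 and TET3 the groups overlapped, and in each the lowest of the 4 was replicate 2 from the stiff matrix.

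The differences of EP300 and CREBBP at 4 days turned on single libraries. Leaving out a library leaves 1 in its group, so only log2 differences are given here. EP300 had a log2 difference of -0.85 without replicate 1 and of 0.39 without replicate 2 from the stiff matrix. Without replicate 2 from the soft matrix it was 0.16, against -0.11 with all libraries. EP300 itself had 24.5 and 34.5 CPM on the soft and 38.5 and 16.3 CPM on the stiff matrix at 4 days, so that the stiff pair enclosed the soft pair. CREBBP showed the same arrangement at 47.6 and 54.2 CPM on the soft and 62.4 and 41.2 CPM on the stiff matrix, and its log2 difference of 0.03 became -0.29 without replicate 1 from the stiff matrix, -0.06 without replicate 1 from the soft matrix and -0.08 without scaling factors.

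**Figure D2:**
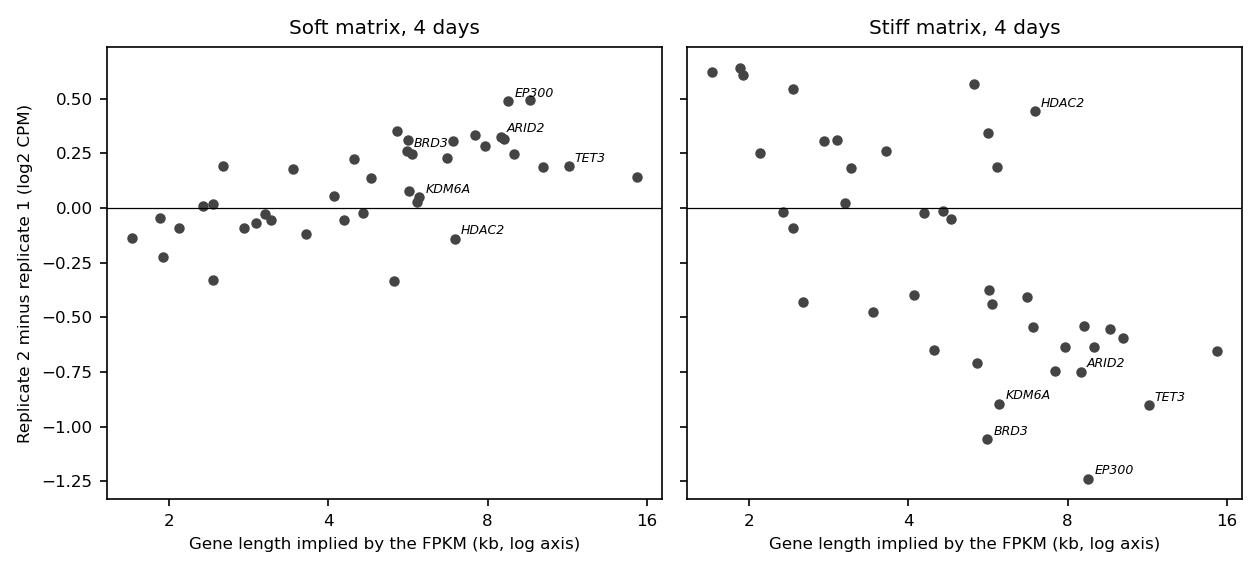
Difference between replicates at 4 days (replicate 2 minus replicate 1, log2 CPM) against the gene length implied by the FPKM (kb, log axis) for 40 of the listed genes on the soft (left) and stiff (right) matrix, with BRD2 left out because its implied length exceeds its transcripts. On the stiff matrix the points tend downward with length (Spearman's rho -0.691 over these 40 genes), with EP300 lowest and exceptions such as HDAC2 above 0, and on the soft matrix they tend upward (0.666).

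The difference between the stiff replicates at 4 days was correlated with gene length. In replicate 2, 27 of the 41 genes were lower than in replicate 1, with a median of -0.38 on the log2 scale against -0.004 over all genes. Across the 41 genes, Spearman's rho between this difference and the implied length was -0.665 (-0.691 without BRD2), and across 13158 genes it was -0.576. Between the soft replicates at 4 days, rho was 0.66 over the 41 genes and 0.492 over all genes. These are correlations across genes that share the same libraries, and genes are not independent replicates. The widest gaps between the stiff replicates were in EP300 (2.36 times), BRD3 (2.08 times) and TET3 (1.87 times), whereas the widest at 2 days on that matrix was 1.17 times.

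Whether the effect of stiffness differed between the days was tested as an interaction. In edgeR, 0 of the 41 genes passed after adjustment, where 0% of all genes did, and at an unadjusted p under 0.05 the count was 0 of 41 against 1.95% of all genes. DESeq2 called 3 of all genes and 0 of the 41. TET3 had the largest change, from a difference of 0.34 at 2 days to -0.41 at 4 days (interaction -0.75, standard error 0.369, unadjusted p = 0.0764 in edgeR). Without replicate 1 from the stiff matrix at 4 days, the interaction of TET3 was -1.26.

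Culture time gave larger differences than stiffness in these genes. From 2 to 4 days on the soft matrix, 9 of the 41 genes fell (22%, where 13.3% of all genes were lower) and 3 rose (7.32%, where 14.1% of all genes were higher) in edgeR with Benjamini-Hochberg adjustment. The 9 were the acetyltransferase genes EP300, CREBBP and KAT2A, the SWI/SNF genes ARID1A and SMARCD2, the deacetylase genes HDAC6 and HDAC7, the demethylase gene KDM6B and the DNA methyltransferase gene DNMT1, and those that rose were HDAC2, HDAC8 and SUZ12. With offsets for length and GC content, CREBBP, HDAC7, DNMT1, HDAC2, HDAC8 and SUZ12 were no longer called on this matrix. The median log2 change was -0.19, against 0.02 over all genes, with 15 of the 41 genes above and 26 below 0 (50.9% of all genes were above). Every 4-day library lay below every 2-day library in 23 genes (56.1% against 36.7% of all genes) and above in 11 (26.8% against 38.5%). Day of culture and anything else that differed between the days cannot be told apart, and in bulk RNA fewer cells with a transcript cannot be told apart from less of it per cell.

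The count on the soft matrix depended on single libraries. Without replicate 1 or 2 of the soft matrix at 2 days, 1 (KAT2A) and 4 of the 12 calls held, and without replicate 1 or 2 of the soft matrix at 4 days, 3 and 4 held. Leaving out either stiff library of 2 days lost CREBBP, DNMT1, HDAC8, SMARCD2 and SUZ12. Leaving out either stiff library of 4 days kept every call and added others, and without replicate 1 there the calls over all genes rose too.

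On the stiff matrix, 11 of the 41 genes fell from 2 to 4 days (26.8%, where 13.7% of all genes were lower) and 3 rose (7.32%, where 14% of all genes were higher). With offsets for length and GC content, SMARCA4, TET3, EZH2 and HDAC2 were no longer called on this matrix. The median log2 change was -0.32, against 0.03 over all genes, with 13 of the 41 above and 28 below 0 (51.8% of all genes were above). Both libraries of 4 days lay below both of 2 days in 22 genes (53.7% against 31.1%) and above in 9 (22% against 31.6%). When the stiff libraries were fitted on their own, 0 of the 41 and 0 of all genes passed the adjusted threshold in edgeR, with 12 of the 41 lower and 3 higher, and 4188 of all genes in either direction, at an unadjusted p under 0.05. Most of the 14 calls were lost without either stiff library of 2 days, though KDM6B was kept each time. Without either soft library of 2 days BRD3, DNMT1, EZH2, SMARCA4 and TET3 were lost. Without either stiff library of 4 days the 14 were kept and others were added, and without replicate 1 there the calls over all genes rose too.

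The calls on the matrices overlapped. Of the listed genes, 10 were called on both matrices in the same direction, which is 83.3% of the calls on the soft and 71.4% of those on the stiff matrix, where 75.5% and 74.8% of all called genes were shared. These were ARID1A, EP300, CREBBP, KAT2A, HDAC6, HDAC7, KDM6B and DNMT1, which fell, and HDAC2 and HDAC8, which rose. Each matrix had its own libraries for this comparison, but both tests used the same spread per gene, estimated over all 8 libraries. With the stiff libraries fitted on their own, 0 of the 14 stiff calls held. SMARCD2 and SUZ12 passed only on the soft matrix and SMARCA4, BRD3, EZH2 and TET3 only on the stiff matrix, but 0 of the 41 genes passed the test of a difference between the matrices.

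**Figure D3:**
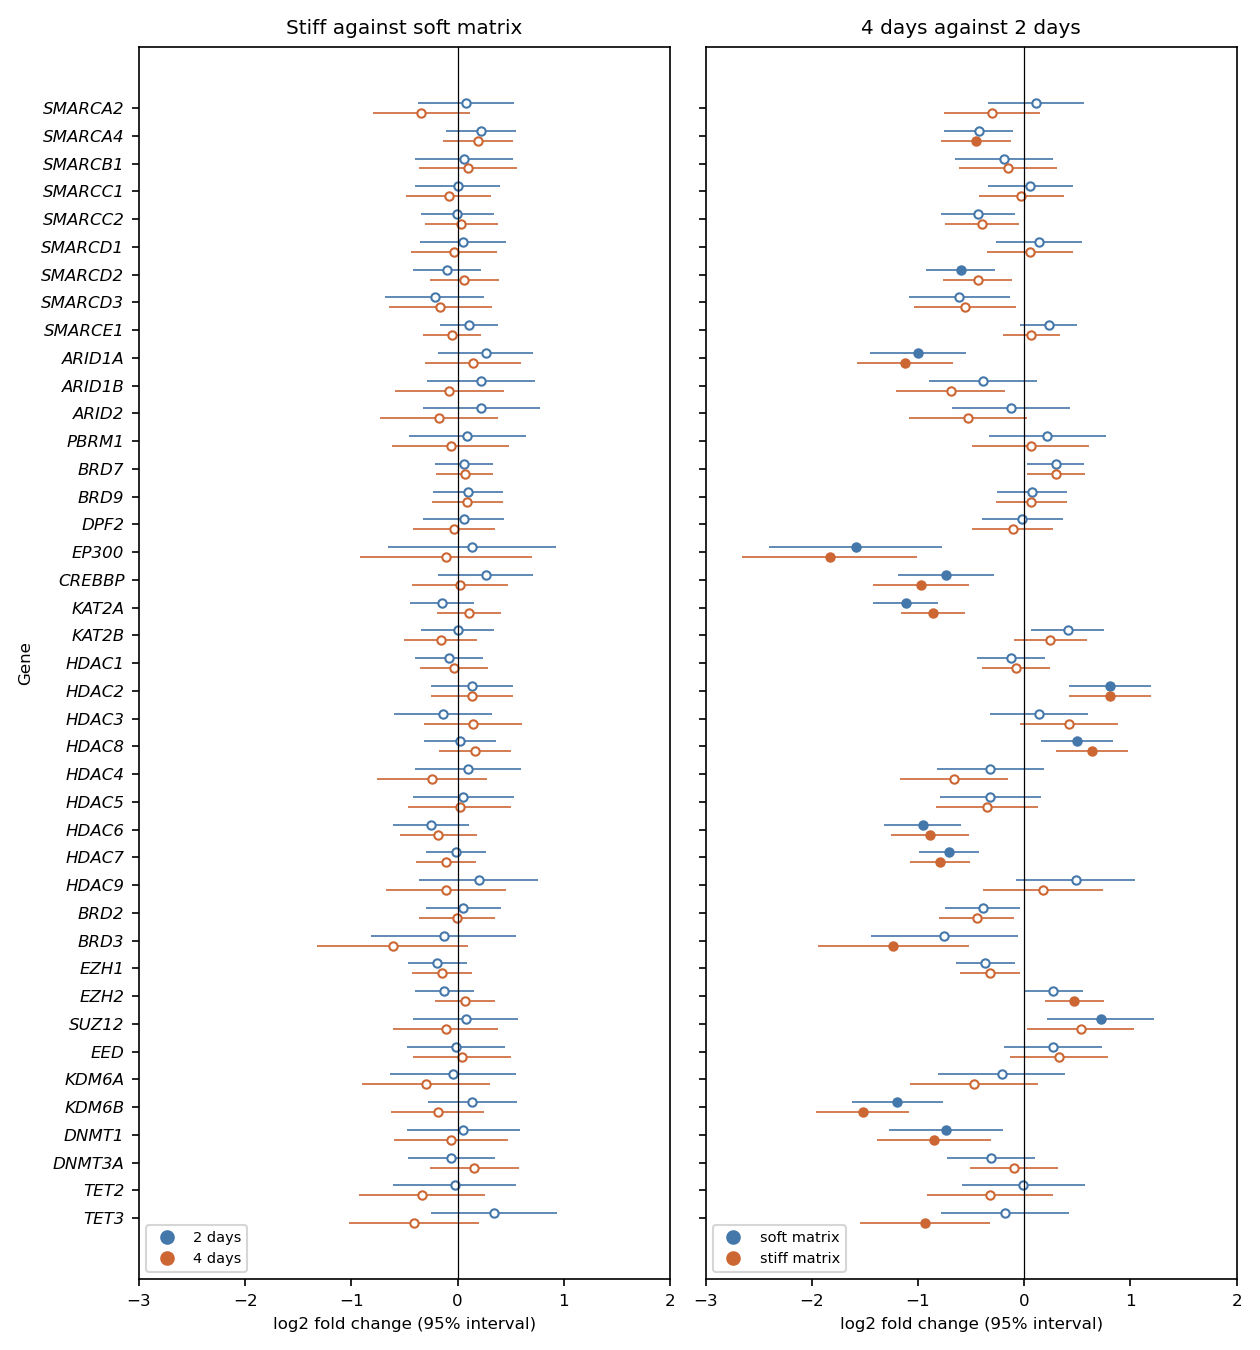
Log2 fold changes of the 41 genes with their 95% intervals by edgeR, for the stiff against the soft matrix (left, at 2 and 4 days) and for 4 against 2 days (right, on each matrix), with filled points at an adjusted p under 0.05 and open points otherwise. No point on the left is filled, and on the right EP300 and KDM6B lie lowest and HDAC2 highest.

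Of the 4 acetyltransferase genes, 3 fell with time on both matrices, and EP300 had the largest fall of the 41 genes. EP300 and CREBBP encode closely related coactivators that acetylate histones at enhancers and promoters, and KAT2A and KAT2B encode alternative catalytic subunits of SAGA-type complexes. EP300 (chromosome 22 of GRCh37, from 41488596 to 41576081, forward strand) had 88.8 and 88.6 CPM on the soft and 99.1 and 96.1 CPM on the stiff matrix at 2 days, and its 4 libraries of 4 days, given above, lay between 16.3 and 38.5 CPM. The 2-day libraries were all above the 4-day libraries. The log2 change was -1.59 (standard error 0.353, adjusted p = 0.0155 in edgeR) on the soft and -1.83 (standard error 0.356, adjusted p = 0.0101) on the stiff matrix, which is 3.004 and 3.556 times lower.

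CREBBP (chromosome 16, from 3775055 to 3930714, reverse strand) had 84.3 and 85.1 CPM on the soft and 101 and 102 CPM on the stiff matrix at 2 days. All 4 libraries of 4 days, between 41.2 and 62.4 CPM, lay below these, and the log2 change was -0.73 (standard error 0.196, adjusted p = 0.0285 in edgeR) on the soft and -0.97 (standard error 0.196, adjusted p = 0.0114) on the stiff matrix. KAT2A (chromosome 17, from 40265129 to 40273385, reverse strand) went from 140 and 137 CPM to 65.0 and 62.6 CPM on the soft matrix and from 119 and 131 CPM to 64.5 and 73.3 CPM on the stiff matrix. Its replicates were close in every condition, and its adjusted p was 0.00221 and 0.00457 in edgeR for log2 changes of -1.12 (standard error 0.131) and -0.86 (standard error 0.13). KAT2B had 14.4 to 16.3 CPM at 2 days and 17.9 to 21.4 CPM at 4 days, with log2 differences of 0.41 and 0.24 that did not pass (adjusted p = 0.0755 and 0.25 in edgeR).

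The stretches before the start sites of the acetyltransferase genes that fell and of HDAC2, the listed gene with the largest rise, are shown because these genes moved in opposite directions. They are 240 bases on the gene's strand, ending 10 bases before the RefSeq start (RefSeq promoters, GRCh38.p14), and an exact match places them on GRCh37 at chr22:41488346-41488585 (EP300), chr16:3930725-3930964 (CREBBP), chr17:40273396-40273635 (KAT2A) and chr6:114292323-114292562 (HDAC2). Capitals mark GC boxes (GGGCGG on either strand, with overlaps counted), of which CREBBP holds 3.
EP300: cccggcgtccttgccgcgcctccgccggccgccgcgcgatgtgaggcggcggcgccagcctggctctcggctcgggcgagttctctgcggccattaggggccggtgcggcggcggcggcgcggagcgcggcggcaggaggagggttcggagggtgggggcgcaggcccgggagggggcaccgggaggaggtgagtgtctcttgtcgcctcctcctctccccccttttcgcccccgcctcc
CREBBP: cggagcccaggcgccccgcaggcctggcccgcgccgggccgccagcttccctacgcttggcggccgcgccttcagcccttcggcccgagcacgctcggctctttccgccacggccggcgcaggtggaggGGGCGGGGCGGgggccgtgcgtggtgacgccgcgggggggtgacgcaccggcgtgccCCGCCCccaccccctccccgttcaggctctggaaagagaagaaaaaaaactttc
KAT2A: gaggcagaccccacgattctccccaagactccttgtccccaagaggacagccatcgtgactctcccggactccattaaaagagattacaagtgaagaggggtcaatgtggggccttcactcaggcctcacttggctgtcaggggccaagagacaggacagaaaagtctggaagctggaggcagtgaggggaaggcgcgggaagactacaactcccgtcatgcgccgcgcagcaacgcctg
HDAC2: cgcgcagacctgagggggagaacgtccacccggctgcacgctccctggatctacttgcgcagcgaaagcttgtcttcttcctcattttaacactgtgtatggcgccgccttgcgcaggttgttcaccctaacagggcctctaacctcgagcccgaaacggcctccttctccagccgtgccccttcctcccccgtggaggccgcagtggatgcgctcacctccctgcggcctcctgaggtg

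Of the 41 genes, 37 had a promoter of 300 bases in the RefSeq table (250 before and 50 after the start), and SMARCC1, SMARCC2, ARID2 and HDAC5 had none. The GC box was found on either strand in 25 of the 37 (67.6%), against 44.6% of 27305 promoters of that length. The letters CCAAT were found in 12 (32.4% against 35.7%), the AP-1 letters TGAGTCA in 3 (SMARCA2, SMARCB1 and KDM6A, 8.11% against 4.92%), the TEAD letters GGAATG in EED and HDAC8 (5.41% against 14.0%), the ETS letters CCGGAAG in SMARCA2 (2.7% against 10.7%), and those of CRE (TGACGTCA) and NRF1 (its palindromic consensus) in 0 of the 37 (against 1.98% and 1.36%). None of the 7 motifs was found in the windows of EP300, KAT2A and HDAC2. A match of letters is a description of the sequence.

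**Figure D4:**
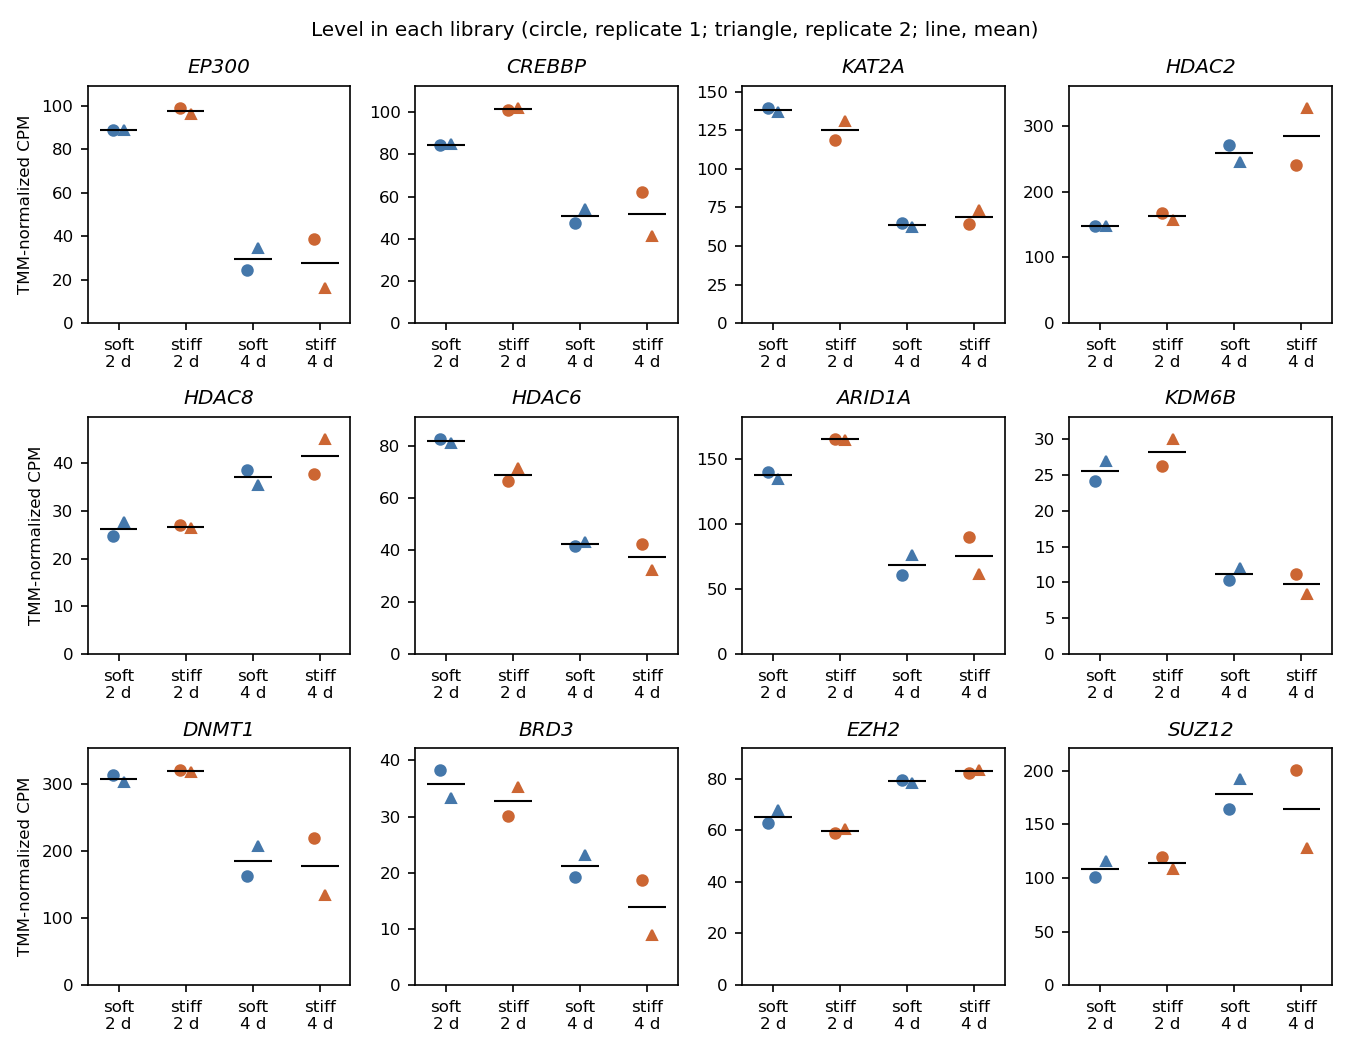
TMM-normalized CPM of 12 listed genes in each library (circles, replicate 1; triangles, replicate 2; horizontal lines, means of 2) on the soft (blue) and stiff (orange) matrix at 2 and 4 days, with axes from 0. In EP300, CREBBP, KAT2A, HDAC6, ARID1A, KDM6B, DNMT1 and BRD3 the 4-day libraries lie below the 2-day libraries, and in HDAC2, HDAC8, EZH2 and SUZ12 they lie above.

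Calls among the deacetylases went in either direction. Class I HDACs are mostly nuclear, and of the 4 listed, HDAC2 and HDAC8 rose on both matrices and HDAC1 and HDAC3 did not pass on either. HDAC2, a catalytic subunit of the Sin3, NuRD and CoREST corepressor complexes, had 148 and 148 CPM on the soft and 168 and 157 CPM on the stiff matrix at 2 days, and 272 and 246 CPM and 241 and 329 CPM at 4 days. All 4-day libraries lay above all 2-day libraries, and the log2 change was 0.81 on each matrix (standard error 0.167 in both), with an adjusted p of 0.0121 and 0.0124 in edgeR. HDAC1, its partner in the same complexes, lay between 118 and 151 CPM in all 8 libraries, with log2 differences of -0.12 and -0.07.

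HDAC8 had 24.7 and 27.7 CPM on the soft and 26.95 and 26.34 CPM on the stiff matrix at 2 days. At 4 days it had 38.5 and 35.5 CPM and 37.7 and 45.2 CPM, above every 2-day library, for log2 changes of 0.50 (standard error 0.146, adjusted p = 0.0396 in edgeR) and 0.64 (standard error 0.147, adjusted p = 0.0179). HDAC3, which acts in corepressor complexes, had 110 to 125 CPM at 2 days and 119 to 181 CPM at 4 days and did not pass (adjusted p = 0.642 and 0.152 in edgeR).

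Class II HDACs other than the mainly cytoplasmic HDAC6 shuttle between nucleus and cytoplasm in this list. Of the 5 listed, HDAC6 and HDAC7 fell on both matrices. HDAC6 went from its 2-day levels given above to 41.5 and 43.1 CPM on the soft and 42.4 and 32.2 CPM on the stiff matrix. Its log2 change was -0.96 (standard error 0.158, adjusted p = 0.00559 in edgeR) on the soft and -0.89 (standard error 0.158, adjusted p = 0.0076) on the stiff matrix. HDAC7, which represses targets of MEF2 factors, had 155 to 171 CPM in the 2-day and 92.2 to 102 CPM in the 4-day libraries. Its individual values were 171, 155, 157 and 165 CPM at 2 days and 102, 98.0, 93.6 and 92.2 CPM at 4 days, in the order soft then stiff, for log2 changes of -0.71 (standard error 0.122, adjusted p = 0.00655 in edgeR) and -0.80 (standard error 0.122, adjusted p = 0.00477). HDAC4, HDAC5 and HDAC9 did not pass on either matrix, with log2 differences between -0.66 and 0.48.

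Of the 16 SWI/SNF genes, ARID1A was the only one called on both matrices. ARID1A, the DNA-binding subunit that defines the BAF form of the complex, had 140 and 135 CPM on the soft and 166 and 165 CPM on the stiff matrix at 2 days, and 61.3 and 76.3 CPM and 89.9 and 61.9 CPM at 4 days. The days did not overlap, and the log2 change was -1.001 (standard error 0.196, adjusted p = 0.0101 in edgeR) on the soft and -1.12 (standard error 0.196, adjusted p = 0.00702) on the stiff matrix. ARID1B, which takes the same place in BAF, had log2 differences of -0.39 and -0.69 that did not pass (adjusted p = 0.22 and 0.0516 in edgeR).

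Of the other SWI/SNF genes, SMARCD2 and SMARCA4 passed on a single matrix. SMARCD2, a core subunit, went from 146 and 142 CPM to 98.0 and 92.0 CPM on the soft matrix (log2 change -0.60, standard error 0.14, adjusted p = 0.0184 in edgeR), and on the stiff matrix from 132 and 136 CPM to 88.7 and 110 CPM (adjusted p = 0.0523). SMARCA4 went from its 2-day levels to 147 and 150 CPM on the soft and 159 and 181 CPM on the stiff matrix, with the 4-day libraries below the 2-day libraries of the same matrix. Its log2 changes were -0.43 (adjusted p = 0.0576 in edgeR) and -0.46 (adjusted p = 0.047), with standard errors of 0.142 on each. SMARCA2 had differences of 0.11 and -0.30 (adjusted p = 0.691 and 0.28). The remaining 12 SWI/SNF genes had log2 differences with time between -0.69 and 0.30 and did not pass on either matrix.

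PRC2 genes did not move in a single direction. Its catalytic genes EZH2 and EZH1 had opposite signs with time, and its structural genes SUZ12 and EED had values above 0. EZH2 had 62.6 and 67.8 CPM on the soft and 58.9 and 60.5 CPM on the stiff matrix at 2 days, and 79.6 and 78.2 CPM and 82.2 and 83.5 CPM at 4 days. All of its 4-day libraries were above all of its 2-day libraries, and it rose on the stiff matrix (log2 change 0.47, standard error 0.121, adjusted p = 0.0249 in edgeR) and did not pass on the soft matrix (log2 difference 0.28, standard error 0.12, adjusted p = 0.125). EZH1 fell short of the threshold, with 33.8 and 33.2 CPM on the soft and 30.4 and 30.1 CPM on the stiff matrix at 4 days (log2 differences -0.37 and -0.32, adjusted p = 0.0554 and 0.083 in edgeR).

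SUZ12 had 101 and 116 CPM on the soft and 120 and 109 CPM on the stiff matrix at 2 days, and 165 and 192 CPM and 201 and 129 CPM at 4 days. It rose on the soft matrix (log2 change 0.72, standard error 0.216, adjusted p = 0.0428 in edgeR) and missed the threshold on the stiff matrix (log2 difference 0.53, adjusted p = 0.104), where replicate 2 was far below replicate 1. EED had 51.0 to 53.7 CPM at 2 days and 52.8 to 77.1 CPM at 4 days, with log2 differences of 0.27 and 0.33 that did not pass.

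Among the H3K27 demethylases, KDM6B fell and KDM6A did not pass in the main fit without offsets. KDM6B had 24.12 and 26.98 CPM on the soft and 26.2 and 30.1 CPM on the stiff matrix at 2 days, and 10.27 and 12.04 CPM and 11.2 and 8.41 CPM at 4 days. Every 4-day library lay below every 2-day library, and the log2 change was -1.20 (standard error 0.186, adjusted p = 0.00486 in edgeR) on the soft and -1.52 (standard error 0.189, adjusted p = 0.00251) on the stiff matrix. KDM6A had 25.3 to 29.5 CPM at 2 days and 23.2 to 24.9 CPM at 4 days except for 13.4 CPM in replicate 2 from the stiff matrix.

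DNMT1, which copies methylation onto newly made DNA, had 312 and 303 CPM on the soft and 321 and 317 CPM on the stiff matrix at 2 days, and 162 and 207 CPM and 219 and 134 CPM at 4 days. The days were separate, and the log2 change was -0.74 (standard error 0.232, adjusted p = 0.0489 in edgeR) on the soft and -0.85 (standard error 0.232, adjusted p = 0.031) on the stiff matrix. DNMT3A, which methylates new sites, had 10.2 to 14.6 CPM over all libraries and did not pass. TET3 had 14.8 and 15.7 CPM on the soft and 19.5 and 19.1 CPM on the stiff matrix at 2 days, and with its 4-day levels given above it fell on the stiff matrix (log2 change -0.93, standard error 0.264, adjusted p = 0.0345 in edgeR). TET2 stayed between 5.93 and 11.4 CPM and did not pass.

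Of the BET genes, BRD3 had 38.4 and 33.2 CPM on the soft and 30.1 and 35.3 CPM on the stiff matrix at 2 days. It fell on the stiff matrix by 4 days (log2 change -1.23, standard error 0.307, adjusted p = 0.0226 in edgeR) and on the soft matrix had a log2 difference of -0.75 (standard error 0.3, adjusted p = 0.0979). BRD2 had 222 to 237 CPM at 2 days and 152 to 194 CPM at 4 days, without overlap, but did not pass (adjusted p = 0.095 and 0.0632 in edgeR).

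The time change was correlated with the base composition of the transcripts. Across the 41 genes, Spearman's rho between the log2 change and the GC content of the transcript was -0.753 on the soft and -0.622 on the stiff matrix, and across 13158 genes it was -0.576 and -0.446. HDAC2, at 32.4% GC, and SUZ12, at 38.2%, lay at the end that rose, and KDM6B, at 62.4%, and HDAC7, at 61.1%, among those that fell. Replicates of the same condition also differed with GC content: for replicate 2 minus replicate 1 at 2 days, rho was -0.632 on the soft and 0.575 on the stiff matrix over the 41 genes, and -0.576 and 0.281 over all genes. With implied length, rho of the time change was -0.221 on the soft and -0.432 on the stiff matrix over the 41 genes, and 0.031 and -0.167 over all genes. EP300, which had the largest fall, has 49.8% GC and an implied length of 8761 bases. The part of these properties in its fall was not tested. The listed genes share their libraries and differ from other genes in these properties, with a median implied length of 5400 against 2922.5 bases and a median GC content of 52.61% against 49.4%.

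**Figure D5:**
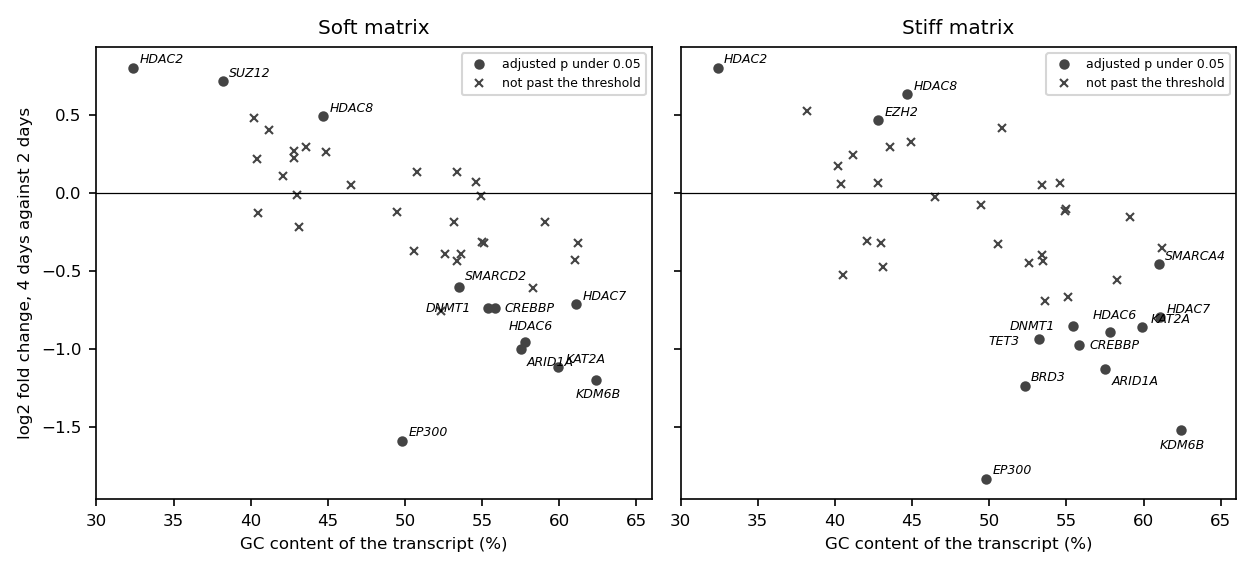
Log2 fold change from 2 to 4 days against the GC content of the transcript (%) for the 41 genes on the soft (left) and stiff (right) matrix, with circles at an adjusted p under 0.05 and crosses otherwise. Points run from HDAC2 at the upper left to KDM6B at the lower right, and EP300 lies below the others at a middle GC content.

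When the fit was given these offsets for gene length and GC content in each library, the median change of the 41 genes became -0.01 on the soft and -0.06 on the stiff matrix. The offsets were fitted to each library's own values. Any change between the days that follows length or GC content is therefore taken out with them, whatever its origin. Smaller changes and lost calls in this fit thus do not show which calls were right. In that fit 7 of the 41 genes were called lower on the soft matrix, where 13% of 13158 genes were, and 0 higher, where 16% were. On the stiff matrix 14 were called lower and 2 higher (HDAC8, and BRD2 with its excessive implied length), against 13.3% and 18.9% of all genes. Of these, 6 of the 7 and 10 of the 16 were also called without offsets.

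ARID1A, EP300, KAT2A, HDAC6 and KDM6B were called lower on both matrices with and without offsets, at reduced size. EP300 had -1.37 (standard error 0.199, adjusted p = 0.00297 in edgeR) on the soft and -1.49 (standard error 0.201, adjusted p = 0.00225) on the stiff matrix. ARID1A went from -1.001 and -1.12 to -0.48 and -0.46 on the soft and stiff matrix, KDM6B from -1.20 and -1.52 to -0.51 and -0.72, KAT2A from -1.12 and -0.86 to -0.70 and -0.45, and HDAC6 from -0.96 and -0.89 to -0.60 and -0.49. On the soft matrix the calls of CREBBP (-0.24), HDAC7 (-0.19), DNMT1 (-0.42), SUZ12 (0.21), HDAC2 (0.21) and HDAC8 (0.29) were lost, and on the stiff matrix those of HDAC2 (0.49), EZH2 (0.22), TET3 (-0.37) and SMARCA4, which turned from -0.46 to 0.24. ARID2 was called lower on both matrices only with offsets (-0.37 and -0.56, adjusted p = 0.017 and 0.00377 in edgeR). On the stiff matrix alone, SMARCA2 (-0.32, adjusted p = 0.0214 in edgeR), SMARCD3 (-0.38, adjusted p = 0.0419) and KDM6A (-0.52, adjusted p = 0.028) were also called lower only with offsets. BRD2 turned on the stiff matrix from -0.45 to a call of higher (0.33, adjusted p = 0.0121 in edgeR), and SMARCE1 from 0.07 to a call of lower (-0.24, adjusted p = 0.0389). The offset of BRD2 rests on its implied length of 33211 bases, 5.459 times its longest transcript. Its turn therefore cannot be read as a change of BRD2. With offsets the sign turned in 13 of the 41 genes on the soft and 9 on the stiff matrix.

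Lists of other chromatin genes were read from the main fit without offsets, and 0 genes of any of them passed the stiffness test at either time. Their counts stand against 14.1% (soft) and 14% (stiff) of all genes called higher and 13.3% (soft) and 13.7% (stiff) called lower. Over all genes the time change in this fit was correlated with GC content (rho -0.576 on the soft and -0.446 on the stiff matrix). Results of these lists with offsets are not given. Of 19 methyltransferases of H3K4, H3K36, H3K9 and H3K79, 9 fell and 1 rose on the soft matrix (47.4% and 5.26%), and 11 fell and 1 rose on the stiff matrix (57.9% and 5.26%). KMT2A (log2 change -1.75 and -2.05 on the soft and stiff matrix), KMT2B (-1.69 and -1.85) and KMT2D (-1.76 and -2.26), which methylate H3K4, and DOT1L (-1.18 and -1.08), which methylates H3K79, were lower, and SUV39H2 (0.78 and 0.98), which methylates H3K9, was higher. Of 20 corepressor partners of HDACs, 3 rose and 4 fell on the soft (15% and 20%) and 1 rose and 3 fell on the stiff matrix (5% and 15%), among them SIN3B (-1.11 and -1.07), a scaffold that carries HDACs, and TBL1XR1 (1.81 and 1.30), a corepressor subunit. The other deacetylases and sirtuins gave 3 of 8 lower (37.5%) on the soft matrix and 1 of 8 (12.5%), HDAC10 (-1.50 and -1.24), also on the stiff matrix.

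Of 12 tested among 15 other SWI/SNF subunits, 4 rose and 2 fell on the soft (33.3% and 16.7%) and 3 rose and 3 fell on the stiff matrix (25% each). DPF3 rose by 0.85 and 1.37 and GLTSCR1, a subunit of the ncBAF form, was lower at -0.80 and -0.95. The other 12 acetyltransferases had 2 higher and 2 lower on the soft (16.7% each) and 1 higher and 2 lower on the stiff matrix (8.33% and 16.7%), with HAT1 at 0.73 and 0.84 and KAT8 at -0.67 and -0.73. Of 25 other Polycomb genes, 6 rose and 6 fell on the soft (24% each) and 5 rose and 5 fell on the stiff matrix (20% each). RNF2, the ubiquitin ligase of PRC1, rose by 0.94 and 0.70.

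Some of these counts may include reads of other genes. The strand setting and the annotation used for counting are not given in the sources used here, and exons on the opposite strand overlap, for example, SMARCB1 (DERL3), SMARCC2 (MYL6), HDAC5 (G6PC3), HDAC7 (SLC48A1) and BRD2 (HLA-DMA), so that reads of either gene cannot be told apart. An unnamed antisense transcript overlaps EP300, and SUZ12 has a partial pseudogene copy with which its reads may be shared.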

How the data were processed

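Per the labels and the submitters' processing notes, paired-end reads were cleaned with Trim Galore, mapped to hg19 with STAR 2.7.1a and counted per gene with HTSeq. The authors deposited the counts without normalization, and the FPKM deposited beside them were the same counts divided by median-of-ratios size factors (tested in 10081 genes) and by a gene length that was whole within 0.001 bases (tested in 20029 genes). Annotation and strand setting are not given in the sources used here, and the sequencing platform differs between the labels and the study's methods.

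Positions came from GENCODE v44lift37 (GRCh37) by symbol. In R 4.3.3, genes were filtered with filterByExpr by condition, counts were scaled by TMM, and edgeR 4.0.16 fitted 4 conditions to all 8 libraries (prior degrees of freedom 3.86, common dispersion 0.0281) with quasi-likelihood F tests, Benjamini-Hochberg adjustment over 14570 genes and a threshold of 0.05. A standard error is the log2 fold change over the square root of F. Values in every library are given for called genes, the smallest p per stiffness comparison, the widest replicate gaps, EP300, CREBBP, SMARCA2, SMARCA4, EZH1 and EZH2, and at most 5 genes per other list were named by adjusted p. The genes, lists and rules were chosen with earlier results of these data known. Alternatives were DESeq2 1.42.0, other scaling, no filter, separate fits, a replicate block, leaving out each library and, added after seeing the data, a crossed block and offsets (splines of length and GC content). The fits were tested on simulated data with 1 spread per gene shared by all conditions and without trends in length or GC content. That test does not cover the wider spread of the stiff libraries at 4 days or those trends. Totals of 19955975 to 27263935 counts and 2 libraries per condition limit precision. Results of some genes are not reported here.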

Additional observations from a re-analysis of the deposited data

Results flagged for a closer look

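EZH2, the main catalytic gene of PRC2, was flagged because its stiff libraries lay below its soft libraries at 2 days and above them at 4 days, without overlap at either time. Of all genes, 22.4% lay below without overlap at 2 days and 11.7% above at 4 days. The share of all genes with such a reversal was not counted, so it is not known to be unusual. The difference between the stiffness effects at 4 and 2 days was 0.197 on the log2 scale, and it did not pass the test of that difference in edgeR (unadjusted p = 0.281, adjusted p = 1). Without scaling factors the 4-day difference of EZH2 was -0.05 instead of 0.07.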

How the results depend on the processing

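For the 41 genes, the counts of 0 called by stiffness at either time and in the difference of the stiffness effect were the same in every alternative that kept all libraries. Leaving out single libraries gave 0 to 3 higher and 0 to 12 lower at 4 days and 0 to 1 higher and 0 to 10 lower in the difference. All genes called by stiffness at 2 days (0) became 28 with DESeq2, 667 in a separate fit and 0 to 118 without single libraries. At 4 days (36) they became 164 with DESeq2, 0 in a separate fit, 134 with offsets for length and GC content and 0 to 4686 without single libraries, and in the difference (0) they became 3 with DESeq2 and 0 to 3137 without single libraries.

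From 2 to 4 days on the soft matrix, the listed genes called higher (3) became 1 without scaling factors, 5 in a separate fit, 0 with offsets and 0 to 7 without single libraries, and those called lower (9) became 16 in a separate fit and 1 to 18 without single libraries. All genes called there (3985) became 7261 in a separate fit and 353 to 7920 without single libraries. On the stiff matrix a separate fit called 0 listed genes in either direction and 0 of all genes, and leaving out single libraries gave 0 to 5 higher, 1 to 21 lower and 482 to 7806 of all genes (4024 with all libraries). With offsets the sign turned in 4 and 5 of the 41 genes for stiffness at 2 and 4 days and in 13 and 9 for time on the soft and stiff matrix, of which BRD2 and SMARCE1 on the stiff matrix passed with the turned sign. BRD2 was among the turned genes each time, and its offset rests on an implied length that exceeds its transcripts. Among genes called in a comparison and those followed for stiffness, reversed signs were SMARCA2 at 2 days with offsets (-0.003724), SMARCA4 with time on the stiff matrix with offsets (0.235), and, for stiffness at 4 days, CREBBP (-0.07604) and EZH2 (-0.0496) without scaling factors, EP300 (-0.8459 to 0.3897) and CREBBP (-0.2933 to 0.3014) without single libraries. The cause was not tested.

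Replicate numbers did not pair the libraries (correlations of deviations from -0.49 to 0.0773). With the number as a replicate block, the paired fit called 1 listed gene higher on the soft matrix, 8 of the 12 soft and 10 of the 14 stiff calls held, and all genes called were 14 for stiffness at 4 days and 2626 and 2543 for time on the soft and stiff matrix. Crossing the numbers on the stiff matrix at 4 days, chosen after seeing the data as were the offsets, gave 62 genes for stiffness at 4 days and 0 of the 41. Depth limits HDAC9, TET2 and HDAC4 most, and a lone library is assumed to vary like the other groups.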

Other observations

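Further lists of chromatin and cell-cycle genes were read from the main edgeR fit, without offsets for length and GC content. From 2 to 4 days, 14.1% (soft) and 14% (stiff) of all genes were called higher there and 13.3% (soft) and 13.7% (stiff) lower. Of 20 tested among 21 ISWI, CHD and INO80 remodeller genes, 3 rose and 3 fell on the soft (15% each) and 2 rose and 5 fell on the stiff matrix (10% and 25%). EP400, the ATPase of the TIP60 complex, was lower at -1.72 and -1.91 on the log2 scale on the soft and stiff matrix, and the ISWI ATPase genes SMARCA5 (0.83 and 0.62) and SMARCA1 (0.91 and 0.68) were higher. Of 15 other histone demethylases, 0 rose on either matrix, while 2 fell on the soft (13.3%) and 4 on the stiff matrix (26.7%), KDM4B (-0.60 and -0.68) and KDM2B (-0.46 and -0.47) on both. Of 8 other DNA methylation genes, 1 fell on the soft (12.5%) and 3 on the stiff matrix (37.5%), with MBD1, a reader of methylated DNA, at -0.55 and -0.56.

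Of 16 proliferation genes, 3 rose and 2 fell on the soft (18.8% and 12.5%) and 5 rose and 2 fell on the stiff matrix (31.2% and 12.5%). CDK1, the mitotic kinase, was higher (0.94 and 1.09), as was the replication helicase gene MCM6 (0.69 and 0.74), and TYMS, which makes thymidylate, was lower (-1.02 and -0.93). None of these lists held a gene called by stiffness at either time.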
